A study of Mus musculus with 6 samples.

Results

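The proteasome subunits are a family of genes whose annotated symbols start with Psma, Psmb, Psmc, Psmd or Psme followed by a number. Of the 19057 named genes on the array, 45 matched this rule. Psmc3ip and Psme3ip1 matched by spelling only, since they encode partner proteins (Psmc3ip acts in meiotic recombination), and they were kept apart. The other 43 genes are subunits or activators, read by 76 probes. They were measured in 3T3-L1 adipocytes, fat cells differentiated in culture from 1 mouse preadipocyte line with a medium that itself held dexamethasone (DEX), a synthetic glucocorticoid. After that medium was withdrawn and the cells were kept in stripped serum, they were given 500 nM DEX or its ethanol vehicle for 6 h, and total RNA of 3 samples per group was hybridized to MouseWG-6 BeadChip arrays. Whether the 3 samples of a group came from separate cultures is not in the labels, and the tests rest on the scatter among arrays, whose source may be technical only.

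The proteasome is a barrel of protein subunits that cuts up proteins tagged with ubiquitin. Its core, the 20S particle, has outer rings of alpha subunits (Psma genes) that form the gate and inner rings of beta subunits (Psmb genes), of which Psmb5, Psmb6 and Psmb7 encode the catalytic ones. The 19S regulatory particle has a ring of ATPases (Psmc genes) that unfold substrates and a set of non-ATPase subunits (Psmd genes) that receive ubiquitin chains and remove them. In cells exposed to interferon and in immune cells the catalytic subunits are replaced by Psmb8, Psmb9 and Psmb10, which form the immunoproteasome, and Psme1 and Psme2 form the activator PA28. Glucocorticoids are known to raise the expression of ubiquitin-proteasome genes in wasting muscle and to dampen interferon and inflammatory genes in many cells.

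The 8 adipocyte markers fixed as a check of the cells, Adipoq and Pparg among them, were detected on all 6 arrays. Plin1, which coats lipid droplets, was lower in DEX (log2 change -1.03, adjusted p = 0.0029 from limma). Retn at -0.52 and Cidec at 0.49 did not pass. Of the 8 changes, 4 were negative. Lpl had a change of 0.18 (adjusted p = 0.493 from limma), with every DEX array above every vehicle array. The summed log2 signal of the 8 markers was 15.86 to 15.91 in vehicle. It was higher on every DEX array, reaching 16.13. Of 6 preadipocyte and fibroblast markers, 5 were tested and none passed, though Gata2 at -1.09, Gata3 at -0.45 and Pdgfra at 0.63 (adjusted p = 0.0508) had an unadjusted p under 0.05. Their summed log2 signal, most of it from Dlk1, was 14.04 to 14.19 in vehicle and 13.85 to 14.26 in DEX. Of 6 leukocyte markers on the array, 4, including Ptprc and Csf1r, were detected on no array, and the summed log2 signal of the 6 was 7.34 to 7.66 in vehicle and 7.14 to 7.45 in DEX. Cd14, the only one tested, had a log2 change of -0.60 (adjusted p = 0.33), of the same sign as the immunoproteasome genes. The part of these marker differences in the results below was not tested. Per array, 15800 to 16523 of 45281 probes were detected, and the 16317 probes with a detection call on 3 or more arrays entered the test. Values below are log2 signals after background correction and quantile normalization, each gene by its brightest probe, and signals of different probes are not compared with each other. The number of arrays limits the precision.

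One of the 38 tested proteasome genes passed the test with DEX, and of the classes of subunits the immunoproteasome had the lowest median change. Of 43 subunit genes, 38 had a tested brightest probe. Psmb10 alone passed an adjusted p of 0.05 in limma, with a lower signal in DEX, so that 1 subunit gene passed as lower and 0 as higher. Over all 9137 tested genes 7.58% passed, 3.06% lower and 4.52% higher. Before adjustment, 4 subunit genes had p under 0.05 with a lower signal and 1 with a higher signal, beside 11.9% and 10% of all genes. With the replicate numbers as pairs these counts were 7 lower and 1 higher (15.8% and 11.7% of all genes), and 2 genes passed as lower after adjustment (5.99% of all genes). The median log2 change of the 38 genes was -0.13, beside -0.06 over all tested genes, and 28 of the 38 changes were negative, as were 57.7% of those of all genes. Vehicle and DEX arrays did not overlap for 8 of the 38 genes, 7 of them lower, beside 27.9% of all genes (15.7% lower and 12.2% higher). In bulk RNA, fewer cells of a kind and less RNA per cell cannot be told apart.

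**Figure D1:**
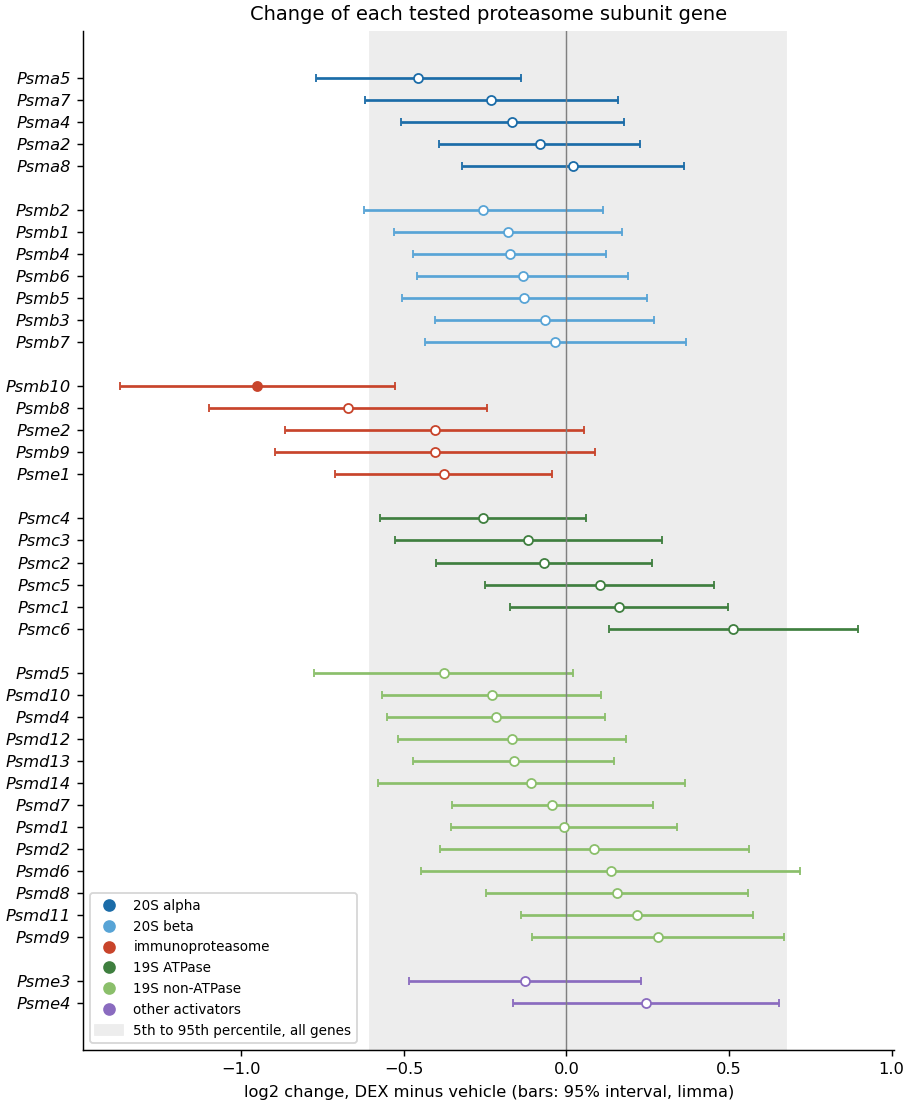
Log2 change (DEX minus vehicle) of the 38 tested subunit genes, with 95% intervals from limma (n = 3 arrays per group), coloured by class. The filled point passed at an adjusted p under 0.05, and the grey band spans the 5th to the 95th percentile of all tested genes (-0.60 to 0.68). Psmb10 and Psmb8 lie outside the band, and the points of the 33 genes outside the immunoproteasome lie inside it.

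By class, the median log2 change was -0.17 for 5 tested alpha subunits, -0.14 for 7 beta subunits, -0.40 for 5 immunoproteasome genes, 0.02 for 6 ATPases, -0.04 for 13 non-ATPase subunits and 0.06 for the activators Psme3 and Psme4. All 5 immunoproteasome genes and all 7 beta subunits had negative changes, while 8 of the 19 genes of the regulatory particle had positive ones. The 5 immunoproteasome changes ran from -0.95 to -0.38. The other 33 ran from -0.46 to 0.51. These medians are descriptions of the members, and no test across a class was made.

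Psmb10 encodes the immunoproteasome subunit that takes the place of Psmb7. Its log2 signals were 10.43, 10.73 and 10.75 in vehicle and 9.81, 9.91 and 9.33 in DEX. Every DEX array lay below every vehicle array. The log2 change was -0.95 (standard error 0.19, adjusted p = 0.0152 from limma), which left 51.8% of the vehicle signal (1.93-fold lower). Its other probe gave 9.54, 9.88 and 10.02 in vehicle and 9.06, 8.93 and 8.17 in DEX, a log2 change of -1.09 (adjusted p = 0.0263). Both probes of Psmb10 therefore passed, and they were the only 2 of 62 tested subunit probes to do so, where 6.80% of all tested probes passed. Without vehicle replicate 2 or vehicle replicate 3 the adjusted p of the brightest probe was 0.0816 or 0.0676, and it was 0.0668 when all probes of the array were tested without the detection filter.

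Psmb8, which replaces Psmb5, had a low signal of 5.98, 6.17 and 6.53 in vehicle and 5.31, 5.78 and 5.57 in DEX, close to the lowest signals called detected (4.97 to 5.05). The groups did not overlap. The log2 change of -0.67 (standard error 0.19) missed the threshold (adjusted p = 0.0691 from limma), and passed when the replicate numbers were used as pairs (adjusted p = 0.0256). The size of the change depended on the background, and was -0.30 without background correction and -0.34 with the authors' lumi values (adjusted p = 0.133 and 0.12). A second probe of Psmb8 was detected on no array. Psmb9, which replaces Psmb6, was detected on all 3 vehicle arrays and on 1 of 3 DEX arrays. Its signals were 5.71, 5.25 and 5.42 in vehicle and 5.53, 4.84 and 4.81 in DEX, and the groups overlapped through DEX replicate 1 (log2 change -0.40, standard error 0.22, adjusted p = 0.343). Each DEX array lay below the vehicle array of its own number (adjusted p = 0.115 as pairs), and the change was -0.15 without background correction.

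Psme1 and Psme2 encode the subunits of PA28, which caps the core and opens its gate without ATP. Psme1 had log2 signals of 11.28, 11.44 and 11.50 in vehicle and 11.12, 11.11 and 10.86 in DEX. The groups did not overlap, with a log2 change of -0.38 (standard error 0.15, adjusted p = 0.181 from limma), and its other probe gave -0.34. Psme2 had signals of 9.31, 9.79 and 9.80 in vehicle and 9.03, 9.58 and 9.07 in DEX, so that vehicle replicate 1 lay below DEX replicate 2 (log2 change -0.40, standard error 0.20, adjusted p = 0.308). Within each replicate number its DEX array was the lower one (adjusted p = 0.134 as pairs). Neither gene passed. The changes of all 5 immunoproteasome genes were negative under every alternative setting that gave them a value.

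The catalytic subunits they replace had changes nearer to 0. Psmb5, the chymotrypsin-like subunit, had signals of 9.41, 9.72 and 9.43 in vehicle and 9.25, 9.64 and 9.28 in DEX. Psmb6, the caspase-like subunit, had 11.97, 12.22 and 12.21 in vehicle and 11.95, 12.10 and 11.96 in DEX. Psmb7, the trypsin-like subunit, had 11.69, 12.11 and 11.99 in vehicle and 11.80, 12.17 and 11.72 in DEX. The groups overlapped for all 3 genes, and their log2 changes were -0.13, -0.14 and -0.03 (standard errors 0.17, 0.14 and 0.18, adjusted p = 0.725, 0.658 and 0.938 from limma). These are the brightest probes. Other probes of Psmb7 gave changes of -0.09, 0.002 and -0.29. Of these, only the probe at -0.29 had groups that did not overlap (adjusted p = 0.283 from limma).

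**Figure D2:**
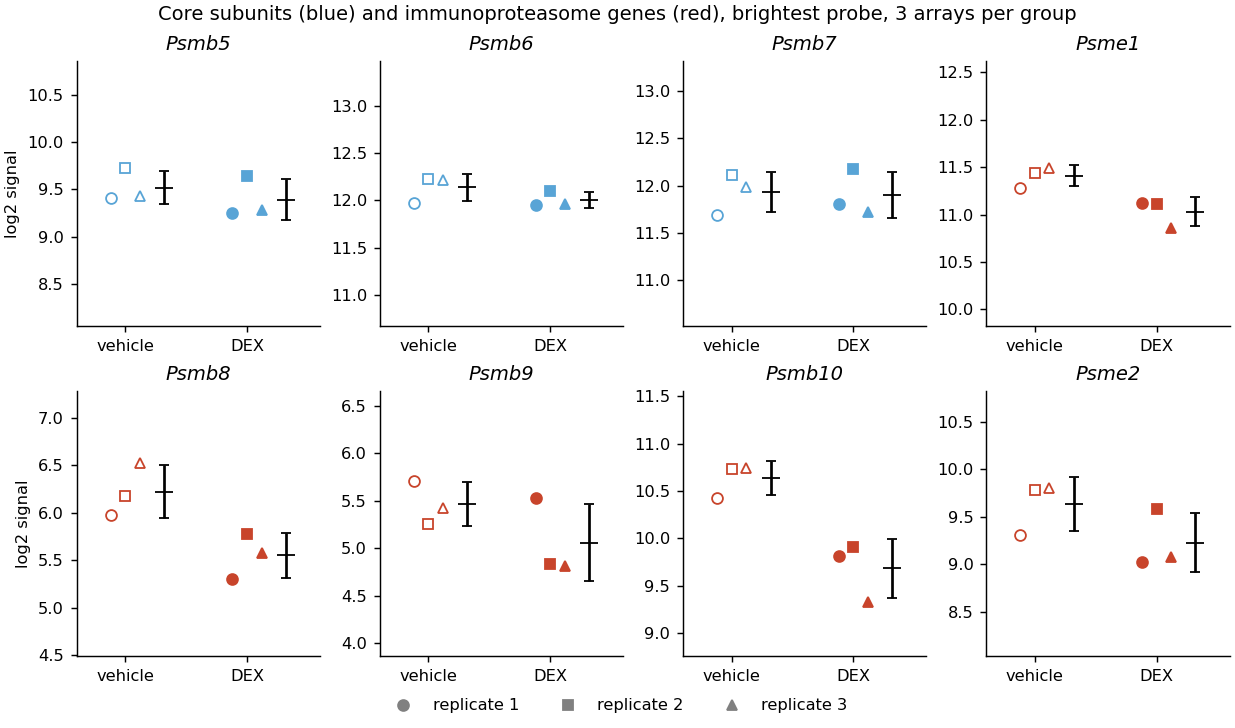
Log2 signal of each array (y axis, spanning 2.8 log2 units in every panel) in vehicle (open symbols) and DEX (filled symbols) for the catalytic subunits Psmb5, Psmb6 and Psmb7 (blue), the immunoproteasome genes that replace them below each, and Psme1 and Psme2 (red). Black bars give the mean and SD of 3 arrays, and symbol shape gives the replicate number. The DEX arrays of Psmb10 (9.33 to 9.91) lie below its vehicle arrays (10.43 to 10.75), while those of Psmb7 lie among them.

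The immunoproteasome gene was also set against the gene it replaces within each array, and the shift of this difference from vehicle to DEX was tested. For Psmb10 against Psmb7 the shift was -0.92, with DEX arrays at -0.69, -0.97 and -1.09 relative to the vehicle mean and vehicle arrays between -0.09 and 0.06. For Psmb8 against Psmb5 the shift was -0.54, with DEX arrays at -0.65, -0.56 and -0.42 and vehicle arrays between -0.25 and 0.39. In both pairs the groups did not overlap, and p = 0.1 in a two-sided exact permutation test, the smallest that 3 arrays against 3 allow (0.15 after adjustment over the 3 pairs). For Psmb9 against Psmb6 the shift was -0.27 and the groups overlapped (exact permutation p = 0.5). The shifts of the dim genes were smaller with other background settings. For Psmb8 against Psmb5 the shift was -0.18 without background correction, -0.22 with the lumi values and -0.30 with an offset of 50 (exact permutation p = 0.4, 0.3 and 0.2), and for Psmb9 against Psmb6 it was -0.01 without background correction (p = 0.9). For Psmb10 against Psmb7 it lay between -1.03 and -0.83 over the 12 alternatives that gave a value. All of these used the brightest probe of each gene, and no pair was formed with the other probes of Psmb7. Without vehicle replicate 3 the shift of Psmb8 against Psmb5 was -0.35.

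The sequences before the starts of these pairs are shown because the members of a pair fill the same place in the core. Each is 250 bases, 5′ to 3′ on the strand of the gene, from RefSeq on GRCm38.p6. Of the 43 subunit genes, 36 matched an entry by symbol, and Psmb7 did not. Capitals mark matches on either strand to the interferon-stimulated response element core (a pair of GAAA runs with 2 bases between them), the STAT site TTCNNNGAA, the antioxidant response element core TGACNNNGC, the CCAAT box or the glucocorticoid response element (GNACA and TGTNC with 3 bases between them). No marked matches overlap each other.
Psmb10 (chr8:105938393-105938642, minus strand): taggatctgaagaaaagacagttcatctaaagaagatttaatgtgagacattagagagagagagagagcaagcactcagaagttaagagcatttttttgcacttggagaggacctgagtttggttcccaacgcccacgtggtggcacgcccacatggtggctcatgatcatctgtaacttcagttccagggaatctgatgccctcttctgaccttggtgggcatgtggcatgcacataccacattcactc
Psmb8 (chr17:34197945-34198194, plus strand): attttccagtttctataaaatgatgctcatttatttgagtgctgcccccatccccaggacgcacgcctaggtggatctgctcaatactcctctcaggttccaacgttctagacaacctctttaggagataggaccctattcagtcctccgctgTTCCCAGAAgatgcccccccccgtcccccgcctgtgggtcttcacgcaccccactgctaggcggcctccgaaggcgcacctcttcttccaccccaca
Psmb9 (chr17:34187331-34187580, minus strand): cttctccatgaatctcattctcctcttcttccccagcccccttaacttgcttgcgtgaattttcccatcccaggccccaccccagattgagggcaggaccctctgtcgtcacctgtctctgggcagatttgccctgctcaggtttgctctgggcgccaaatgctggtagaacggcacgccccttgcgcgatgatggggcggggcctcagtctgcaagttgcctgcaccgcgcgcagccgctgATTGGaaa
Psmb5 (chr14:54617996-54618245, minus strand): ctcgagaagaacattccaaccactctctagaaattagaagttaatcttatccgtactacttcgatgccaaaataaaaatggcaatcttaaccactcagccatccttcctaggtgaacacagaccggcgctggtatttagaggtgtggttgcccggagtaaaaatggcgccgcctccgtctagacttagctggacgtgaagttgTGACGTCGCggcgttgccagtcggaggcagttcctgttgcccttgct
Psmb6 (chr11:70525107-70525356, plus strand): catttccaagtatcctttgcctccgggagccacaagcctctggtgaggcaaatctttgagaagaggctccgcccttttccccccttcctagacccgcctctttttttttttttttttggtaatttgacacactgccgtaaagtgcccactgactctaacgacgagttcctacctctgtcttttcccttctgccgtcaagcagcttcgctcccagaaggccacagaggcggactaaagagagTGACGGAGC

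Among the windows printed, Psmb8 held a STAT site 97 bases before its start, and Psmb9 held a CCAAT box, read on the opposite strand, 8 bases before its start. Psmb5 and Psmb6 each held an antioxidant response element core, 47 and 9 bases before their starts. That element is bound by NRF1, which is known to drive proteasome genes when proteasome activity falls. The Psmb10 window, like those of Psme1 and Psme2, held none of the 5 marked motifs. Over the 36 subunit genes with an entry, the antioxidant element stood before 5 genes (10.2% of all 32851 windows of this length), the CCAAT box before 14 (33.8% of all windows), the interferon element before 3 (2.98%), the STAT site before 1 (7.02%) and the glucocorticoid element before none (0.387%). Shorter strings were searched but not marked. The GC box GGGCGG stood before 21 of the 36 genes (32.7% of all windows) and the half-site GNACA before 28 (81.3%). The windows of Psmb10, Psme1 and Psme2 held the half-site, and those of Psme1 and Psme2 also the GC box. A match is a string of letters in a window, not a shown binding site, and the lack of one says only that these letters are not there.

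The alpha subunits of the core, which form its outer rings, included the change nearest to the threshold outside the immunoproteasome. Psma5 had log2 signals of 12.94, 12.87 and 13.04 in vehicle and 12.52, 12.37 and 12.58 in DEX. All DEX arrays lay below all vehicle arrays. Its log2 change was -0.46 (standard error 0.14, adjusted p = 0.0917 from limma), and a much dimmer second probe gave -0.48 (adjusted p = 0.0702). Psma5 passed under 4 alternatives, with adjusted p = 0.0241 without background correction, 0.0399 with an offset of 50, 0.028 with the authors' lumi values and 0.0193 with array weights. Psma2, Psma4 and Psma7 had log2 changes of -0.08, -0.17 and -0.23 with overlapping groups. Psma8, the alpha subunit of the testis proteasome, was at the edge of detection on 2 of 3 vehicle and all DEX arrays (log2 change 0.02).

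The beta subunits that carry no catalytic site, Psmb1 to Psmb4, had log2 changes of -0.18, -0.26, -0.07 and -0.17. The groups overlapped for all but Psmb4, whose DEX arrays at 12.55, 12.57 and 12.49 lay just under its vehicle arrays at 12.66, 12.73 and 12.74 (adjusted p = 0.512). Of the 12 tested core genes outside the immunoproteasome, 11 had a negative change and none passed, with Psma5 the only one at an unadjusted p under 0.05 from limma. Their 95% intervals reached from -0.77 to 0.37, so all 12 exclude a 2-fold change of the signal in either direction. For Psma8, at the edge of detection, nearness to background limits what the signal says of the RNA.

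The ATPases of the regulatory particle pull the substrate into the core. Psmc6 had signals of 6.17, 6.18 and 6.08 in vehicle and 6.47, 6.52 and 6.98 in DEX. It was the member with the largest positive change, and its groups did not overlap (log2 change 0.51, standard error 0.17, adjusted p = 0.112 from limma). Its change was 0.28 without background correction and 0.31 with the lumi values (adjusted p = 0.16 and 0.15). A second probe of Psmc6 was detected on no array. Psmc4 had the opposite sign, with signals of 11.42, 11.59 and 11.47 in vehicle and 11.36, 11.19 and 11.15 in DEX (log2 change -0.26, standard error 0.14, adjusted p = 0.349). The other 4 ATPases lay between -0.12 (Psmc3) and 0.16 (Psmc1) with overlapping groups.

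The non-ATPase subunits include ubiquitin receptors (Psmd4, Psmd2), the deubiquitinase Psmd14 and, although named with them, the assembly chaperones Psmd5, Psmd9 and Psmd10. None of the 13 tested genes passed, and none had an unadjusted p under 0.05 from limma without pairing. Psmd5 had signals of 7.55, 7.26 and 7.59 in vehicle and 6.98, 6.90 and 7.39 in DEX, so that DEX replicate 3 lay among the vehicle arrays (log2 change -0.38, standard error 0.18, adjusted p = 0.27). It was lower in DEX within each replicate number (unadjusted p = 0.026 and adjusted p = 0.128 as pairs). Psmd9 had 6.29, 6.14 and 6.40 in vehicle and 6.83, 6.54 and 6.30 in DEX, again with DEX replicate 3 inside the vehicle range (log2 change 0.28, standard error 0.17, adjusted p = 0.408). For Psmd14 the DEX arrays lay on both sides of the vehicle arrays (log2 change -0.11, standard error 0.21, adjusted p = 0.825). The receptor gene Psmd4 had a change of -0.22 and Psmd2 one of 0.09. Of the activators, Psme3, a nuclear relative of PA28, and Psme4, which encodes PA200, had changes of -0.13 and 0.24. A dim second probe of Psme4 was called detected on the 3 DEX arrays and not on the vehicle arrays. Set against the lowest detected signal of each vehicle array, its level in DEX was at least 1.35-fold higher. This probe entered the test only through its DEX arrays, so no p is given for it, and it did not pass. The genes outside the classes, Psmc3ip and Psme3ip1, had changes of -0.39 and -0.32 (adjusted p = 0.151 and 0.276).

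Over the 33 tested subunit genes outside the immunoproteasome, every 95% interval lay within a 2-fold change in either direction, and that of 25 genes lay within 1.5 fold. For the other 8, changes of over 1.5 fold but under 2 fold are not excluded. Of the 5 immunoproteasome genes, 3 had intervals within 2 fold and none had one within 1.5 fold. These intervals describe signals, and nearness to background limits the folds of dim genes such as Psma8, Psmc6, Psmb8 and Psmb9.

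**Figure D3:**
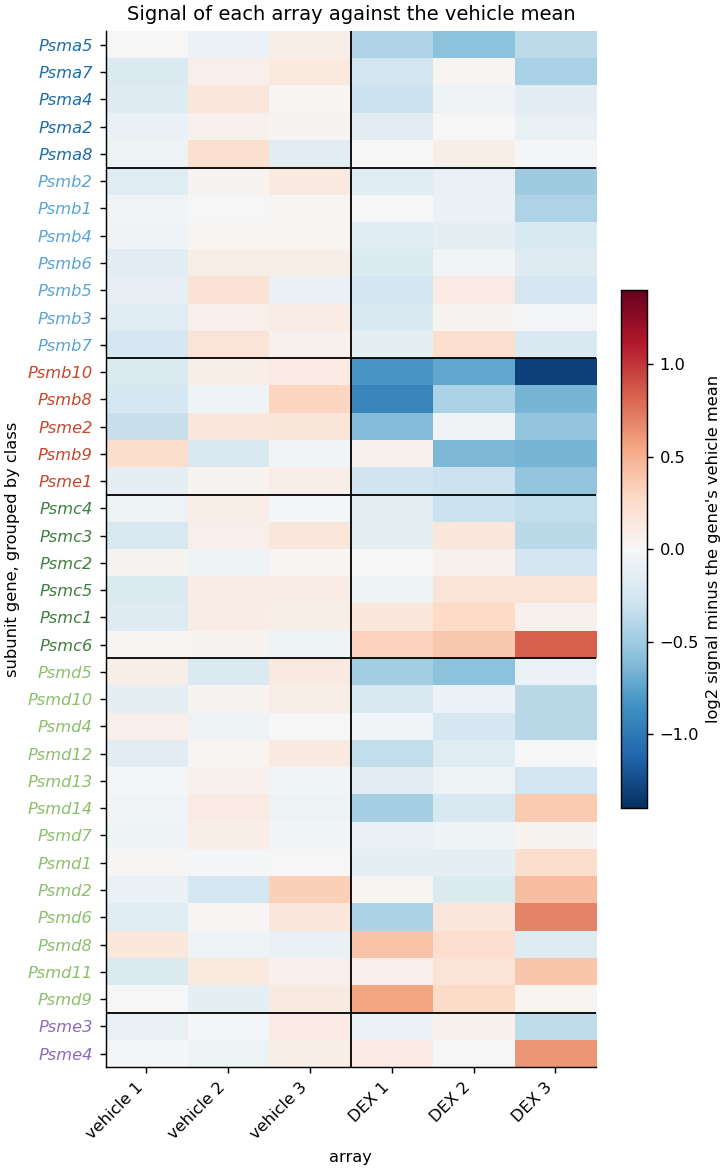
Log2 signal of each array (columns) minus the vehicle mean of the gene, for 38 tested subunit genes (rows) in the order of their class, with red for higher and blue for lower. The immunoproteasome rows are blue on DEX arrays, with medians of -0.61, -0.44 and -0.65. Exceptions are Psmb9 on DEX replicate 1 (0.06) and Psme2 on DEX replicate 2 (-0.05), which are nearly white. The DEX replicate 3 column is red for several Psmd genes and Psme4.

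The arrays of a group differed in ways that ran through whole classes. Vehicle replicate 1 was the lowest vehicle array for 14 of 17 core and immunoproteasome genes, where it was the lowest for 37.0% of all tested genes. DEX replicate 2 was the highest DEX array for 13 of these 17 genes (28.3% of all genes). DEX replicate 3 was the highest DEX array for 10 of 19 genes of the regulatory particle and for 1 of the 17 core and immunoproteasome genes (34.7% of all genes). The part of these array differences in the changes above was not tested. Without vehicle replicate 1 the median log2 change of the immunoproteasome genes was -0.57. Without DEX replicate 1 or DEX replicate 3 the median of the non-ATPase subunits was 0.03 or -0.13, and that of the ATPases was -0.02 without vehicle replicate 1 and -0.04 without DEX replicate 2, so the signs of both rest on single arrays. Leaving out vehicle replicate 1 took the alpha median to -0.26, while leaving out vehicle replicate 2 took it to -0.09 and leaving out DEX replicate 1 to -0.10. The beta median became -0.09 when DEX replicate 3 was left out. With 1 array left out the median of Psme3 and Psme4 lay between 0.02 and 0.11.

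Of the 43 genes, 19 had more than 1 tested probe, and these allow a second reading. The probes of a gene had one sign in 15 of the 19. In the other 4, Psmb7, Psmc2, Psmd1 and Psmd14, no probe passed. The spread of the changes within a gene was 0.10 in the median and 0.29 at most, for the 4 probes of Psmb7. Of the 76 probes, 62 were tested and 14 were detected on no array. For Psma1, Psma3, Psma6, Psmb11 and Psmd3 no probe was detected on any array, so no change is given for them. Psmb11 encodes a thymus subunit, while Psma1, Psma3 and Psma6 are parts of every core and Psmd3 is a part of the regulatory particle. The brightest probes of these 4 genes lay at 4.28 to 4.73 on the log2 scale, under the lowest detected signals.

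**Figure D4:**
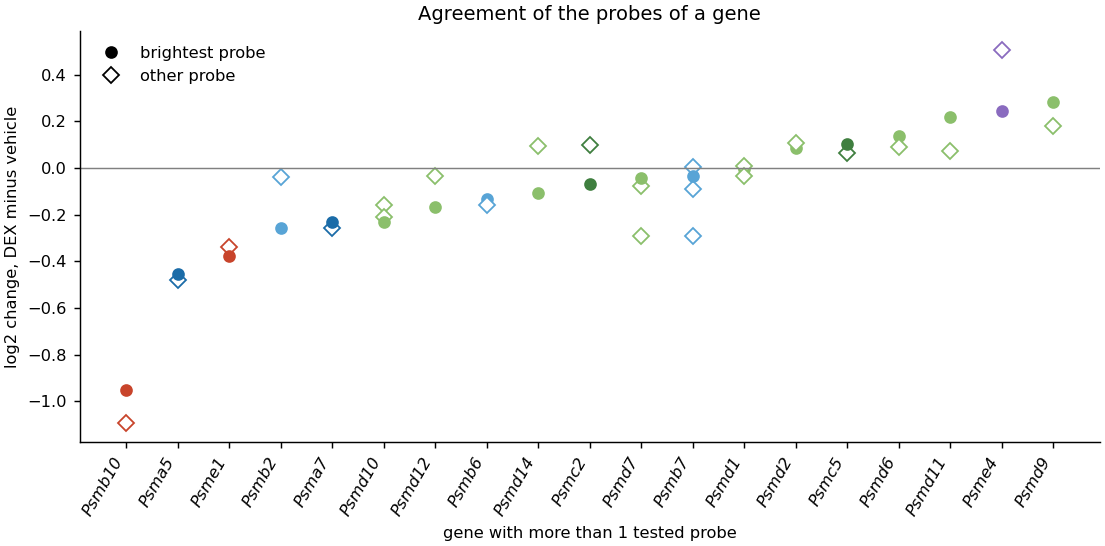
Log2 change of each tested probe (points) for the 19 subunit genes with more than 1 tested probe, ordered by the change of the brightest probe (filled circles; other probes are open diamonds), coloured by class as in the plot of changes by gene. Both probes of Psmb10 lie near -1, and the probes of a gene differ by 0.29 at most.

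No tested gene in the lists of genes that build, control or feed the proteasome passed. Genes of these lists without a probe detected on 3 or more arrays were not tested. Of 9 tested assembly factors and activity regulators, none passed from limma, and at an unadjusted p under 0.05 there were 0 higher and 1 lower, the assembly chaperone Psmg2 (log2 change -0.46, adjusted p = 0.181), where 10% of all genes were higher and 11.9% lower by that rule, as for each list below. Pomp, which matures the core, had a change of -0.11. Of 6 tested genes that control subunit transcription none passed (1 higher and 0 lower unadjusted), and Nfe2l1, which encodes NRF1, had log2 signals of 12.22 ± 0.09 in vehicle and 12.18 ± 0.05 in DEX (SD, n = 3). Maff, a small Maf partner of NRF factors, had a change of 0.48 (adjusted p = 0.098). Of 12 tested ubiquitin, shuttle and ligase genes none passed (0 higher and 1 lower unadjusted, the shuttle gene Ubqln4 at -0.36). The ligase gene Fbxo32, which encodes atrogin-1 and is known to rise with glucocorticoids in muscle, had a change of 0.32 (standard error 0.18, adjusted p = 0.356). Its vehicle signals of 5.45 to 5.73 lay close to the lowest signals called detected, as did those of Maff, which limits their folds. Trim63, which encodes MuRF1, was detected on 1 DEX array only.

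Antigen presentation genes take up the peptides that the immunoproteasome makes. Of 10 tested, 1 passed in limma as lower and 0 as higher, the same counts as before adjustment, and the median log2 change was -0.14. The gene that passed was Tap2, a chain of the transporter that carries peptides into the endoplasmic reticulum. Its mean log2 signal went from 9.05 ± 0.05 to 8.14 ± 0.14 (SD, n = 3), a change of -0.92 that left 52.9% of the vehicle signal (adjusted p = 0.00418), and it passed under all alternatives. Tap1, its partner chain, was detected on no array. In the RefSeq order of protein-coding genes on chromosome 17, Psmb9, Tap1, Psmb8 and Tap2 follow each other. The 3 of these that were detected had negative changes, as did 57.7% of all tested genes. Of the 3, only Tap2 passed, and Psmb8 and Psmb9 lay close to background. The class I genes H2-K1, H2-D1 and H2-T23 had changes of -0.14, -0.11 and -0.14, B2m, their light chain, 0.04, and Irf1, a transcription factor for Psmb9, -0.23, none of which passed.

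**Figure D5:**
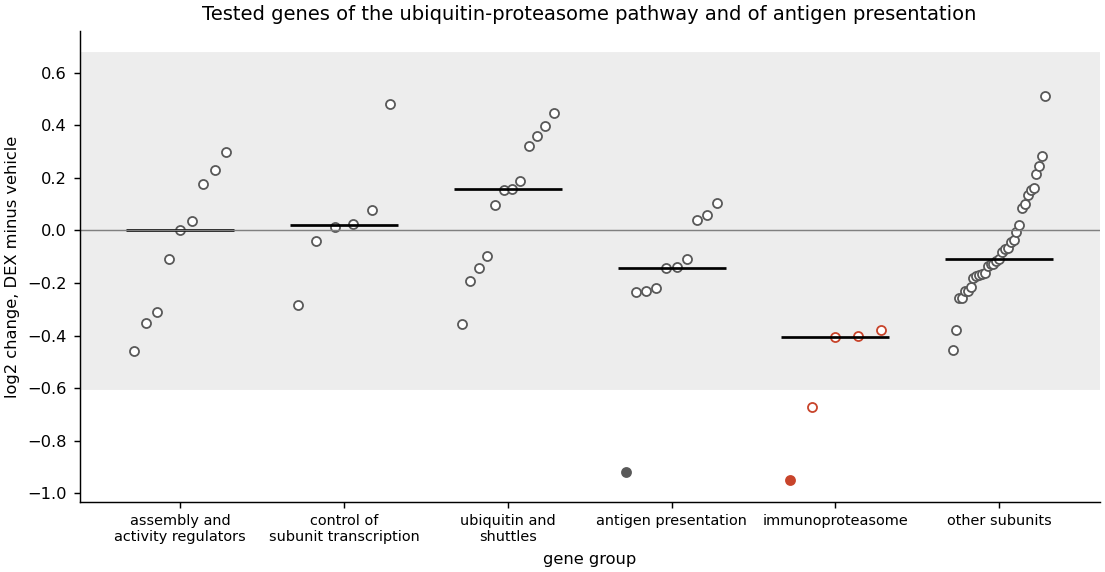
Log2 change of each tested gene in 4 groups of the ubiquitin-proteasome pathway and antigen presentation, beside the immunoproteasome genes (red) and the other subunits, with group medians as black lines and the 5th to 95th percentile of all tested genes in grey. The filled points, Tap2 at -0.92 and Psmb10 at -0.95, passed at an adjusted p under 0.05.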

How the data were processed

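For every array, the authors deposited the raw bead intensity of each probe, neither background-corrected nor normalized, together with its detection p-value. They also deposited intensity values pre-processed with lumi, and the options chosen in lumi are not given in the sources used. The raw intensities were corrected by normexp (offset 16, with the background inferred through the detection p-values), quantile normalized and put on the log2 scale in limma 3.58.1 under R 4.3.3. A probe entered the test if its detection p was below 0.05 on 3 or more arrays, which left 16317 of 45281. DEX was compared with vehicle by limma's moderated test (two-sided), with Benjamini-Hochberg adjustment across all tested probes. The test was also run on simulated data with independent errors between arrays, and no result above rests on that run.

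Probes were named from the platform annotation (34885 probes with 1 symbol), updated through the gene ID to GRCm38.p6. No coordinates of the probes are given. As a check of pairing, each array's deviations from its group mean were correlated across probes. Same-numbered arrays gave 0.44, 0.30 and 0.25, and the other combinations -0.37 to 0.10. A fit with the replicate number as a block was therefore run as an alternative. The members and lists were chosen with earlier results of these data known. Full values are given for the immunoproteasome genes, Psmb5, Psmb6 and Psmb7, members past the threshold on any probe, the other members with the lowest p, and up to 4 genes of each other list past the threshold. Other genes named were chosen after their values were seen.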

Additional observations from a re-analysis of the deposited data

How the results depend on the processing

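No subunit gene passed as higher in DEX under any of the 16 alternatives. The number of subunit genes that passed as lower was 1 in the report. It was 2 without background correction, with an offset of 50, with median scaling and with the authors' lumi values. It was also 2 with the replicate numbers as pairs (replicate block). With array weights it was 3, without the detection filter 0, and 0 to 1 when 1 array was left out. The genes added were Psma5 without background correction, with the offset of 50, with the lumi values and with array weights, and Psmb8 with median scaling (adjusted p = 0.0455), as pairs (0.0256) and with array weights (0.0376). With pairing, no other call changed among the subunit genes or for Tap2, and the numbers passing in the pathway lists stayed the same. No paired result is given for the marker genes. Under median scaling the median of all tested genes was -0.15 against -0.06, and the class medians were -0.33 (alpha), -0.30 (beta), -0.55 (immunoproteasome), -0.13 (ATPases), -0.22 (non-ATPases) and -0.083 (other activators). With 1 array left out the immunoproteasome median was -0.58 to -0.33 and that of the non-ATPases -0.13 to 0.031. The change of Psmb7 turned to 0.018 with array weights and lay between -0.17 and 0.056 with 1 array left out, and it passed under no setting. With array weights 1 assembly factor passed as lower and 1 gene of transcription control passed as higher. The cause of these differences was not tested. Psmb8, Psmb9 and dim genes outside the immunoproteasome, such as Psma8 and Psmc6, lay close to background, which limits their folds.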
